A study of Mus musculus with 6 samples.

Results

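The 10 CC chemokine genes Ccl2, Ccl3, Ccl4, Ccl5, Ccl6, Ccl7, Ccl8, Ccl9, Ccl11 and Ccl12 of mouse chromosome 11 were followed in CT26 tumours from mice given irinotecan or solvent. They were taken by gene symbol from a deposited table of 25251 genes, and each symbol matched 1 row. All 10 passed a filter at a mean normalized count of 10 and were among the 14639 genes tested. A normalized count is the number of reads of a gene divided by 1 factor per library.

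CT26, a colon carcinoma line of the mouse, was here grown under the skin of BALB/c mice whose genotype is labelled WT. The treated group comprised 3 tumours from mice that received CPT-11 (irinotecan, a prodrug of a topoisomerase I inhibitor) at 25 mg/kg into the peritoneum every 4 days, and the control group comprised 3 tumours from mice given solvent. Treatment was assigned once tumours measured 100 mm3, and no source used here gives the age or sex of the mice or the time from the last dose. The labels name the cells as colon cancer cells, but whole tumours were frozen and total RNA was sequenced, so RNA of host cells was measured as well. No label ties a sample to a mouse of its own, so the p-values refer to the spread between the 6 samples, which may be technical.

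CC chemokines are small secreted proteins with 2 adjacent cysteines near the start of the mature chain. They bind glycosaminoglycans on cell surfaces and matrix and act on G protein-coupled CC receptors of leukocytes, which then migrate towards the source. In tumours they are made by macrophages, fibroblasts, lymphocytes and the cancer cells themselves, and the receptor CCR2 is best known for bringing monocytes out of the bone marrow into inflamed tissue. RNA of a bulk tumour cannot tell fewer cells of a type from less RNA per cell.

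The libraries held 13940650 to 15656894 reads. Irinotecan replicate 1 stood apart: its log2 values correlated with those of the other libraries at 0.932 to 0.941 across genes, and it had reads for 19040 genes against 20571 to 21426 elsewhere. Estimated library weights in limma gave it 0.127, against 1.19 to 1.88 for the others. The fold changes of the 10 chemokines, of the named pathway genes and the medians of the pathway lists are therefore also given without it. Of 9 markers listed for the labelled cell type, Krt20 was abundant (1608 to 2098 normalized counts), Krt8 had 37.0 to 149.3 and Krt18 46.2 to 142.2. Epcam was at 0 in 5 libraries, and Vil1 and Cdx2 reached at most 3.08 and 4.84. The rest were Lgals4 (45.2 to 137.8), Cdh1 (11.1 to 38.0) and Krt19 (at most 3.87). Krt19 was at 0 in all irinotecan libraries.

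No CC chemokine passed the test between groups. With limma, at a Benjamini-Hochberg adjusted p under 0.05, 0 of 10 were called higher and 0 of 10 lower, and the share called over all genes was 0% in each direction. At an unadjusted p under 0.05, 1 of 10 (Ccl6) was lower, against 3.08% of all genes, and 0 were higher, against 2.68%. That count of 1 depended on the libraries. It was 5 lower without irinotecan replicate 2 (5.26% of all genes), 1 lower and 1 higher without irinotecan replicate 1 (5.15% and 4.34%), and 0 lower without irinotecan replicate 3 (4.55%), control replicate 1 (1.12%) or control replicate 3 (1.47%). On the reads, edgeR and limma-voom called 0 of 10 in either direction (0.00% of all genes), and DESeq2 called 0 of the 9 to which it gave an adjusted p, with none for Ccl11. At an unadjusted p under 0.05 each of them gave 1 lower, against 3.12% (DESeq2), 2.72% (edgeR) and 3.24% (limma-voom) of all genes, and 0 higher, against 3.49%, 3.22% and 2.68%. DESeq2 called 0.205% of all genes higher and 0.157% lower. All 10 log2 fold changes were negative, with a median of -0.71, where 51.8% of all genes were negative and their median was -0.01. The 10 genes share 6 libraries, and 1 library carried most of that median: without irinotecan replicate 1 it was -0.12, with 7 of 10 negative, against -0.0023 for all genes. In that fit 0 of the 10 were called, where limma and edgeR each called 0.0137% of all genes higher and 0.00% lower, and DESeq2 called 0.533% higher and 0.567% lower. With estimated library weights limma called 0 of the 10, and of all genes 0.205% higher and 0.150% lower.

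The log2 differences from the control mean show how the libraries differed. In irinotecan replicate 1 all 10 genes lay below the control mean, with a median difference of -1.87, and 9 lay below all 3 controls, where 41.2% of all genes did, and 0 above (38.4% of all genes). In irinotecan replicate 2 the median was 0.12, with 1 gene below all controls (25.3% of all genes) and 1 above (23.8% of all genes). In irinotecan replicate 3 it was -0.52, with 7 below all controls (29.0% of all genes) and 3 above all controls (28.0% of all genes). The medians of the controls ran from -0.19 to 0.36. The control mean was taken from these same libraries, which makes their differences from it smaller. Their range is therefore no measure against which to set the irinotecan libraries.

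**Figure D1:**
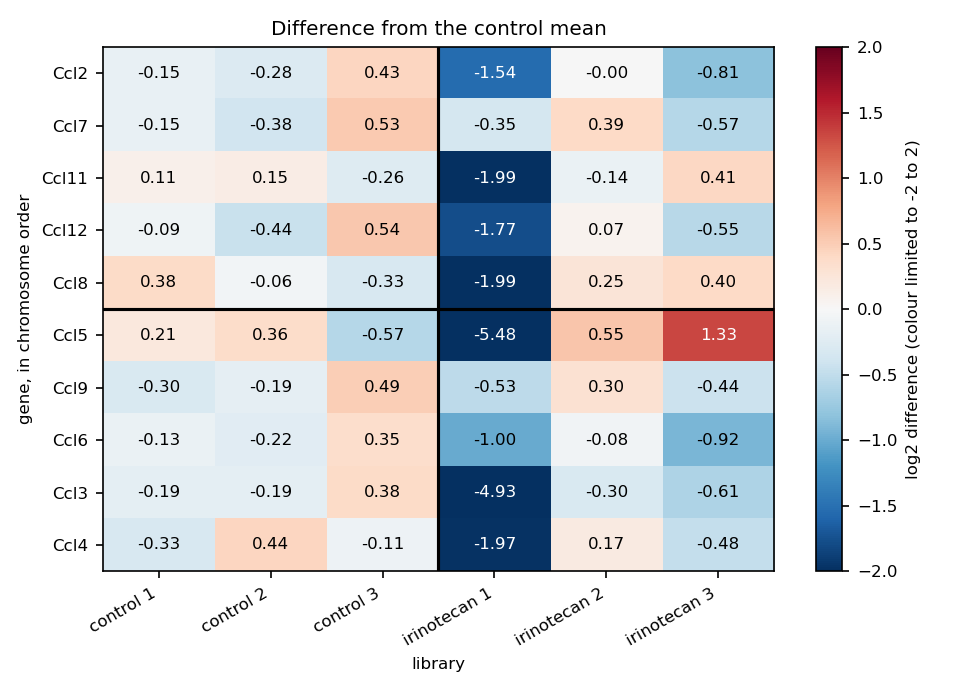
Log2 difference of each CC chemokine from its mean over the control libraries (rows, in chromosome order, with a line between the Ccl2 to Ccl8 group and the Ccl5 to Ccl4 group) in each library (columns). Irinotecan replicate 1 is negative in all rows, from -0.35 for Ccl7 to -5.48 for Ccl5, and irinotecan replicate 3 is positive only for Ccl5, Ccl8 and Ccl11.

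The genes lie in 2 groups on GRCm38. Ccl2, Ccl7, Ccl11, Ccl12 and Ccl8 occupy 81229 bases of chromosome 11, from 82035571 to 82116799, all on the plus strand. After a gap of 1408980 bases, Ccl5, Ccl9, Ccl6, Ccl3 and Ccl4 span 138906 bases from 83525778 to 83664683, with only Ccl4 on the plus strand. The spans in the deposited table equal those of GENCODE M21 for all 10. No 50-base stretch of the GENCODE transcripts of 9 members occurs in a transcript of another gene, and 1.97% of those of Ccl9 do. On the opposite strand, Gm17268 overlaps Ccl2 and E230016K23Rik overlaps Ccl6. E230016K23Rik had at most 8.41 normalized counts, against 848 or more for Ccl6.

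Monocyte-attracting ligands of CCR2 come first. Ccl2, the main monocyte chemoattractant (GRCm38, chromosome 11, 82035571 to 82037453), had 1783, 1625 and 2648 normalized counts in control replicates 1, 2 and 3, and 679, 1966 and 1121 in irinotecan replicates 1, 2 and 3. Irinotecan replicates 1 and 3 were below all controls, and irinotecan replicate 2 was within them, so the groups overlapped. The means were 2019 ± 551 and 1255 ± 654 (SD, n = 3 each), and the limma log2 fold change was -0.79 (SE 0.36, adjusted p = 0.743). Without irinotecan replicate 1 it was -0.41 (SE 0.232, adjusted p = 0.623).

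Ccl12, a second CCR2 ligand of rodents (82101845 to 82103400), had 933, 731 and 1443 normalized counts in the controls and 292, 1045 and 677 with irinotecan. Its libraries took the same order as those of Ccl2, with control replicate 3 highest and irinotecan replicate 1 lowest in both. The means were 1036 ± 367 and 671 ± 377 (SD, n = 3 each), with a limma log2 fold change of -0.75 (SE 0.44, adjusted p = 0.743), and of -0.24 without irinotecan replicate 1. Per kilobase of gene length, Ccl12 stood at 0.911 to 1.28 times the level of Ccl2 in the 6 libraries.

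Ccl7, which acts on CCR2 and other CC receptors (82045712 to 82047525), had 1000.3, 850.0 and 1599.6 normalized counts in the controls and 871, 1454 and 744 with irinotecan. Here irinotecan replicate 1 was within the controls, and irinotecan replicate 3 was the lowest library. The limma log2 fold change was -0.18 (SE 0.301, adjusted p = 0.86), and its sign turned without control replicate 3 (0.088) or without irinotecan replicate 3 (0.022). Relative to Ccl2, the level of Ccl7 per kilobase was 0.743 to 0.858 in the controls and 1.82, 1.05 and 0.943 in irinotecan replicates 1, 2 and 3. All 3 irinotecan ratios lay above all 3 control ratios. This ratio was chosen after its values were seen and was not tested. Of single genes, 6.68% had all irinotecan libraries above the controls, and the share over ratios of gene pairs was not counted.

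Ccl8, a chemokine that in mice acts mainly through CCR8 (82115185 to 82116799), had 1068, 786 and 653 normalized counts in the controls and 205, 975 and 1083 with irinotecan. The value in irinotecan replicate 3 was above all controls and that in irinotecan replicate 1 was at 24.6% of the control mean. The limma log2 fold change of -0.44 (SE 0.568, adjusted p = 0.815) became 0.33 without irinotecan replicate 1 (SE 0.175, adjusted p = 0.598). Per kilobase, Ccl8 ranged from 0.549 to 2.15 times the level of Ccl2, a wider range than that of Ccl12 over Ccl2.

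Ccl11, the eosinophil chemoattractant eotaxin (82057823 to 82062955), was the scarcest member, with 25.2, 26.1 and 19.4 normalized counts in the controls and 5.13, 21.2 and 31.4 with irinotecan. The lowest value rests on 5 reads, with an exact Poisson 95% interval of 1.67 to 12.0 normalized counts, which covers counting error only. The limma log2 fold change was -0.57 (SE 0.628, adjusted p = 0.791), and 0.14 without irinotecan replicate 1. Markers of eosinophils were scarce: the 5 measured genes of that list summed to 0 to 10.5 normalized counts per library, and none passed the filter. The eotaxin receptor gene Ccr3 had 9.35, 2.09 and 0 normalized counts in the controls and 0, 1.93 and 1.01 with irinotecan.

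**Figure D2:**
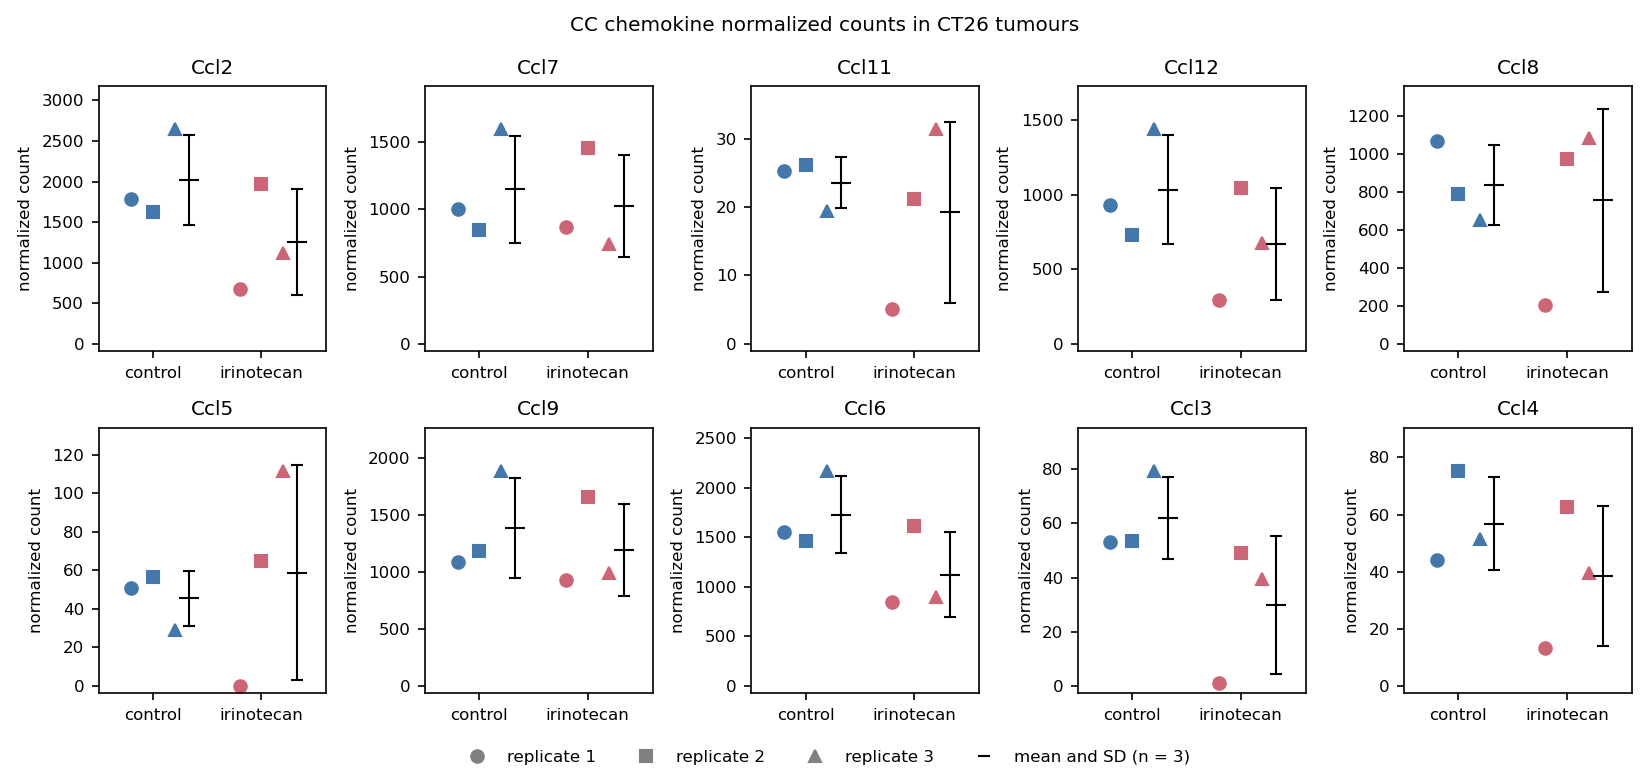
Normalized counts of the 10 CC chemokines (1 panel each, y axes from near 0 with their own scale) in control (blue) and irinotecan (red) tumours, with symbols for the replicate and the mean and SD beside each group (n = 3). Irinotecan replicate 1 (red circle) is the lowest of the 6 libraries for 9 genes, and for Ccl7 the lowest is irinotecan replicate 3.

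Ccl6 and Ccl9 are CCR1 ligands of the mouse that myeloid cells make abundantly. Ccl6 (83587882 to 83593087) had 1556, 1459.6 and 2167 normalized counts in the controls and 848, 1611 and 898 with irinotecan. Values in irinotecan replicates 1 and 3 were below all controls, and that in irinotecan replicate 2 was above 2 of the 3. The means were 1727 ± 384 and 1119 ± 427 (SD, n = 3 each), with a limma log2 fold change of -0.67 (SE 0.265, unadjusted p = 0.0346, adjusted p = 0.743). This was the smallest unadjusted p among the 10, and without irinotecan replicate 1 the log2 fold change was -0.50 (SE 0.222, adjusted p = 0.514).

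Ccl9 (83572919 to 83578636) had 1085, 1179 and 1884 normalized counts in the controls and 929, 1654 and 990.2 with irinotecan. The limma log2 fold change was -0.22 (SE 0.276, adjusted p = 0.812), and -0.07 without irinotecan replicate 1. Its sign turned without control replicate 3 (0.024) and with library weights (0.012). The neighbours Ccl6 and Ccl9 differed in their ratio: per kilobase Ccl6 stood at 2.43, 2.10 and 1.95 times Ccl9 in the controls and at 1.55, 1.65 and 1.54 times with irinotecan. The ratios of the groups did not overlap. This ratio too was chosen after its values were seen and was not tested. The ratios of Ccl12 and of Ccl8 to Ccl2 overlapped between the groups. Of single genes, 7.89% had all irinotecan libraries below the controls and 6.68% above, and the share over ratios was not counted.

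Ccl3, a ligand of CCR1, and Ccl4 are macrophage inflammatory proteins, made by activated macrophages and lymphocytes. Ccl3 (83647844 to 83649355) had 53.3, 53.3 and 79.4 normalized counts in the controls and 1.03, 49.1 and 39.5 with irinotecan. It was the only member whose irinotecan libraries all lay below the controls, 1 of 10, where 7.89% of all genes did so. None had all irinotecan libraries above, against 6.68% of all genes. The value in irinotecan replicate 1 is a single read, with an exact Poisson 95% interval of 0.026 to 5.72 normalized counts. The means were 62.0 ± 15.1 and 29.9 ± 25.5 (SD, n = 3 each). The limma log2 fold change of -1.95 (SE 1.09, adjusted p = 0.743) was -0.46 without irinotecan replicate 1 (SE 0.295, adjusted p = 0.664), and -1.16 with a pseudocount of 10 in place of 1.

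Ccl4 (83662584 to 83664683) had 43.9, 75.3 and 51.3 normalized counts in the controls and 13.3, 62.6 and 39.5 with irinotecan. The value in irinotecan replicate 2 lay within the controls. The limma log2 fold change was -0.76 (SE 0.539, adjusted p = 0.743), and -0.15 without irinotecan replicate 1. Where Ccl3 had 1 read in irinotecan replicate 1, Ccl4 had 13 reads, with an interval of 7.11 to 22.8 normalized counts, so the intervals of these neighbouring genes did not meet in that library.

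Ccl5, or RANTES (83525778 to 83530518), is made by T cells, NK cells and interferon-stimulated cells and acts on CCR1, CCR3 and other receptors. It had 50.5, 56.5 and 29.0 normalized counts in controls, and 0, 64.5 and 111.5 with irinotecan. Values in irinotecan replicates 2 and 3 were above all controls, whereas irinotecan replicate 1 had 0 reads. A count of 0 there allows up to 3.08 normalized counts (3 reads, a one-sided limit), and the exact Poisson 95% interval used for the other genes reaches 3.79. The arithmetic mean was higher with irinotecan, 58.7 ± 56.0 against 45.3 ± 14.4 (SD, n = 3 each), while the limma log2 fold change was -1.20 (SE 1.54, adjusted p = 0.815).

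The sign for Ccl5 depended on the method. It was positive with edgeR (0.38, adjusted p = 0.921) and DESeq2 (0.37, adjusted p = 0.962) on the reads, and negative with limma-voom (-1.47). With a pseudocount of 10 the limma value was -0.26, and without irinotecan replicate 1 it was 0.94 (SE 0.352, unadjusted p = 0.021, adjusted p = 0.431). Among 803 coding genes whose other 5 libraries all lay within the range of Ccl5, 6 (0.747%) had 0 reads in irinotecan replicate 1. These were Ccl5, the CD8 chain gene Cd8b1, Fpr1, Galnt2, Map1lc3a and Ttll11, named because they meet that count and not by the rule for named genes.

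**Figure D3:**
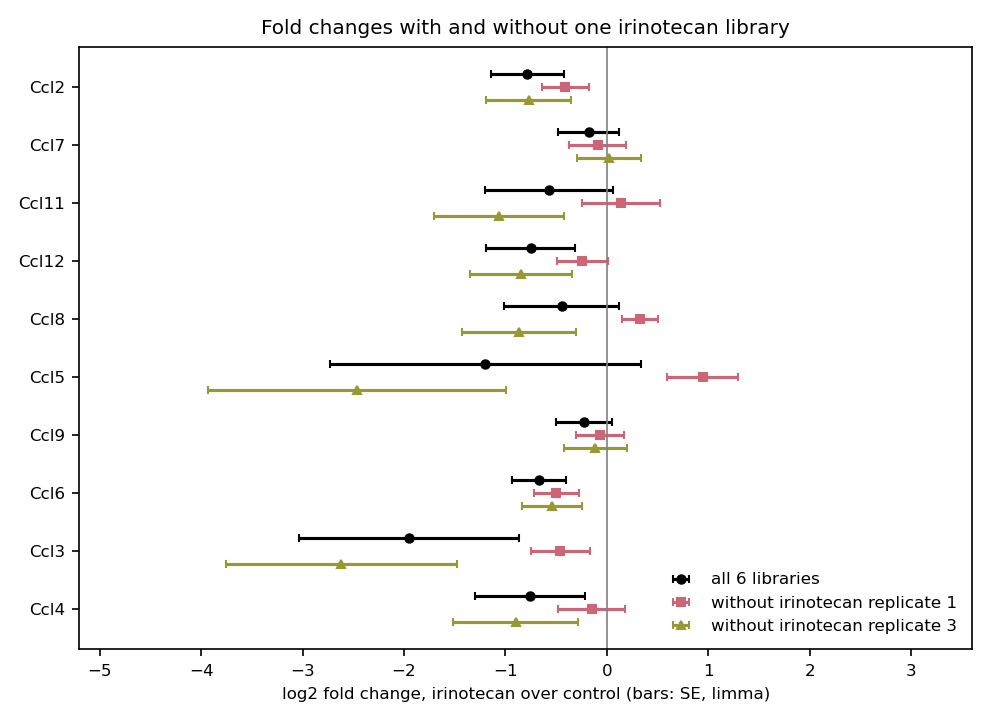
Limma log2 fold changes (x axis, irinotecan over control) of the 10 CC chemokines (y axis) with all 6 libraries (black), without irinotecan replicate 1 (red) and without irinotecan replicate 3 (olive), with bars for the SE. Without irinotecan replicate 1 the values run from -0.50 for Ccl6 to 0.94 for Ccl5, and without irinotecan replicate 3 Ccl5 lies at -2.46.

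Irinotecan replicate 1 was not low by the same amount in every member. Relative to the mean log2 value of the other 5 libraries it was at -5.86 for Ccl5, -4.75 for Ccl3, -2.12 for Ccl8, -2.05 for Ccl11, -1.91 for Ccl4, -1.67 for Ccl12, -1.37 for Ccl2, -0.80 for Ccl6, -0.50 for Ccl9 and -0.31 for Ccl7. Of all genes tested, 0.0205% lay as low as Ccl5, 3.26% as low as Ccl8, 8.13% as low as Ccl2 and 34.5% as low as Ccl7. Ccl8 and Ccl12 had 200 and 284 reads there, and the part of counting error in their values was not tested. Genes within the members' range of length (511 to 3045 bases) and GC content (42.3% to 53.2%) had a median difference from the control mean of -0.21 in that library, over 2497 genes, against -0.017 for all genes. With a trend on GC content and length removed, the median of the 10 log2 fold changes was -0.65, and with a trend on length alone removed it was -0.57, against -0.71 without either step.

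**Figure D4:**
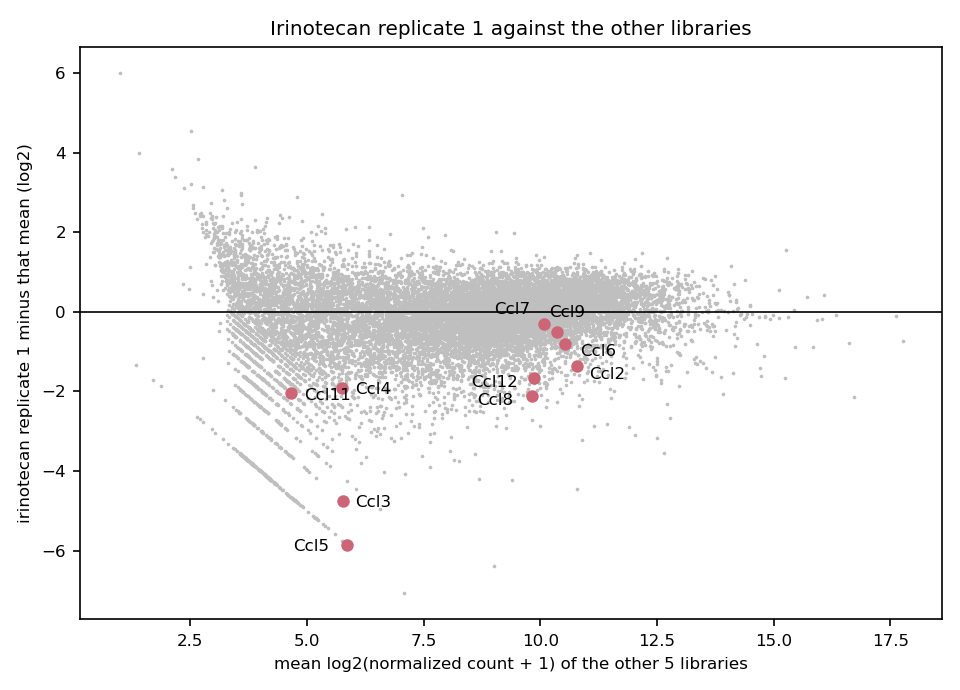
Log2 value of irinotecan replicate 1 minus the mean of the other 5 libraries (y axis) against that mean (x axis) for the 14639 genes tested (grey) and the 10 CC chemokines (red). Ccl5 and Ccl3 lie at -5.86 and -4.75, and Ccl7, Ccl9 and Ccl6 between -0.31 and -0.80.

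Control replicate 3 and irinotecan replicate 3 divided the genes into the same sets, in opposite directions. In control replicate 3, Ccl2, Ccl3, Ccl6, Ccl7, Ccl9 and Ccl12 were the highest of the controls and Ccl5, Ccl8 and Ccl11 the lowest. In irinotecan replicate 3, those 3 genes, Ccl5, Ccl8 and Ccl11, were above all controls, and the first 6 were below all controls. Ccl4 was in the middle of the controls in control replicate 3 and below them in irinotecan replicate 3. This division was noticed in the values and was not tested. Of all genes, 29.0% were below all controls in irinotecan replicate 3 and 28.0% above, and the share with the whole division was not counted. Over all genes tested, deviations of control replicate 3 and irinotecan replicate 3 from their group means correlated at -0.21. This was the lowest value of any pair of a control and an irinotecan library. That correlation uses each group's own mean, whereas the division sets irinotecan replicate 3 against the controls. Whether the division was particular to these chemokines was not tested. T cell markers, a list of 11 genes, summed to 392 normalized counts in control replicate 3, the lowest of the controls, and to 605 in irinotecan replicate 3. The part of these cells in the result was not tested.

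Compared per kilobase of gene length, the members fell into levels far apart. In controls Ccl12 stood at 1928 ± 683 normalized counts per kilobase, Ccl2 at 1774 ± 484, Ccl8 at 1635 ± 415, Ccl7 at 1436 ± 495, Ccl6 at 962 ± 214 and Ccl9 at 454 ± 143 (SD, n = 3 each). Ccl4 (86.1 ± 24.8), Ccl3 (80.9 ± 19.7), Ccl5 (47.2 ± 15.0) and Ccl11 (21.8 ± 3.4) were far lower. Neighbours from Ccl12 down to Ccl6 overlapped in their ranges over the controls, as did Ccl4 and Ccl3, while Ccl6 and Ccl9, Ccl9 and Ccl4, Ccl3 and Ccl5, and Ccl5 and Ccl11 did not. The group from Ccl2 to Ccl8 held 79.0% to 82.5% of the summed level per kilobase in the controls and 76.7% to 83.5% with irinotecan.

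With irinotecan the order of the mean levels per kilobase began with Ccl8 (1477 ± 937), followed by Ccl7, Ccl12 and Ccl2. In irinotecan replicates 2 and 3 alone Ccl8 averaged 2014, and the mean of Ccl5 (91.7) stood above those of Ccl4 (77.4) and Ccl3 (57.9). That order of means did not hold in irinotecan replicate 2. There Ccl12 (1946) exceeded Ccl8 (1907), Ccl4 (94.9) exceeded Ccl5 (67.2), and Ccl5 was little above Ccl3 (64.1). In each of the 3 controls, by contrast, Ccl3 exceeded Ccl5. The 10 genes together took 0.0469% to 0.0711% of all reads in controls, and 0.0248%, 0.0608% and 0.0404% in irinotecan replicates 1, 2 and 3.

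RefSeq upstream sequences of GRCm38.p6 were given for 5 of the 10 members, Ccl3, Ccl6, Ccl8, Ccl9 and Ccl12. The 200 bases before each RefSeq gene start are printed, a start that lies 23 bases upstream of the deposited one for Ccl3 and equals it for the other 4, because they show which neighbours have like upstream DNA, to be set beside how alike their values were. Capitals mark matches to TATAAA (forward strand), an NF-kB form (GGGA and TTCC with NN between them), TGANTCA (AP-1), TTCNNNGAA (GAS), an IRF form (GAAA and GAAA with NN between them) and GGAAGT (ETS), the last 5 searched on both strands.
Ccl12, chr11:82101645-82101844, plus strand: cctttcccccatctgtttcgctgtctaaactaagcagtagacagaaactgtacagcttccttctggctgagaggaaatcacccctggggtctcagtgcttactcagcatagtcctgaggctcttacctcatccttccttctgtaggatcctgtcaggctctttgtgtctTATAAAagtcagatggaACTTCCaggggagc
Ccl8, chr11:82114985-82115184, plus strand: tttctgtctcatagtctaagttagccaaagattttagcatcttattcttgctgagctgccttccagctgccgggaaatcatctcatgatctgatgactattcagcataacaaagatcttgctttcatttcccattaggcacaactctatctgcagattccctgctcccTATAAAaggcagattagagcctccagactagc
Ccl9, chr11:83578637-83578836, minus strand: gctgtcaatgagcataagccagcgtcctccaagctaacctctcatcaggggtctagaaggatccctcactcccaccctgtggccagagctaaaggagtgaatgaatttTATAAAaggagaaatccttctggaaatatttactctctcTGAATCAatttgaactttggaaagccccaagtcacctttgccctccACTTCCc
Ccl6, chr11:83593088-83593287, minus strand: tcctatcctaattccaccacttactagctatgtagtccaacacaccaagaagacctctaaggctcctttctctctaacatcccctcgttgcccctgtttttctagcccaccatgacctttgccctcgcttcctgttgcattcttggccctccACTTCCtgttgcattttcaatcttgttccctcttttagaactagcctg
Ccl3, chr11:83649379-83649578, minus strand: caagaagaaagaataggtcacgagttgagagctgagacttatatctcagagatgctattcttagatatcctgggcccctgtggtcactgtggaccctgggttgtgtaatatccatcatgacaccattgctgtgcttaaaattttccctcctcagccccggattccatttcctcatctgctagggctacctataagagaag

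TATAAA began 31 bases before the start of Ccl12, 32 before Ccl8 and 92 before Ccl9, and 6.27% of 32851 such windows over all genes held it. The ETS core was matched before Ccl12, Ccl9 and Ccl6 (16.7% of all windows) and the AP-1 letters before Ccl9 only (5.48%). The NF-kB, GAS and IRF letters (1.04%, 5.49% and 2.27% of all windows) had no match in the 5 windows. The upstream DNA of Ccl12 and Ccl8 aligned over 146 columns with 61.0% identity, from 147 to 7 bases before each start. In the other 9 pairs the best local alignment covered 9 to 28 columns. The root mean square difference between Ccl12 and Ccl8, after each log2 profile was centred over the 6 libraries, was 0.574, which ranked 17 of the 45 pairs of members from the closest. Without irinotecan replicate 1 it was 0.602 and ranked 31.

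By that measure the closest pair was Ccl7 and Ccl9 (0.142), followed by Ccl2 and Ccl12 (0.167), Ccl8 and Ccl11 (0.205) and Ccl2 and Ccl6 (0.22). Ccl7 and Ccl9 lie in different groups on the chromosome. Without irinotecan replicate 1 the closest pair was Ccl2 and Ccl6 (0.0628). Of all coding genes tested, the most like Ccl2 over the 6 libraries were Cass4 (0.117), mt-Atp6 (0.155) and Fos (0.156), and 3 coding genes were closer to it than Ccl12. The genes most like Ccl9 were Srgn (0.0968), Fam72a and Acod1, those most like Ccl6 were Pthlh (0.0862), Ms4a8a and Npl, and those most like Ccl8 were Gstm2 (0.0892), Ndufs5 and Irx3. The genes most like Ccl5 were Inmt (0.374), Cd8b1 (0.404) and Atp5k (0.414). For Ccl3 they were Gm13889 (0.211), Zfp704 and Grrp1, for Ccl4 Tusc1 (0.141), Dnajc12 and Apip, and for Ccl7 Cyp4f18 (0.103), Lrrc39 and Trpm1. For Ccl11 they were Zfp414 (0.0919), Mrps21 and Ccdc173, and for Ccl12 Pira2 (0.147), Plekhg6 and mt-Atp6. With 6 libraries over 14639 genes, such neighbours are a description only.

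The genes of the receptors were measured in the same tumours. Of 11 CC receptor genes 5 passed the filter, 0 of 5 were called in either direction, and their median log2 fold change was 0.16, or 0.23 without irinotecan replicate 1. Ccr2, the receptor of Ccl2, Ccl7 and Ccl12, had 1028, 1308 and 1108 normalized counts in the controls and 889, 1604 and 1482 with irinotecan (limma log2 fold change 0.17, SE 0.229, adjusted p = 0.824). Irinotecan replicates 2 and 3 were above all controls for Ccr2, while Ccl2 in replicate 3 was below all controls. The log2 fold change of Ccr2 without irinotecan replicate 1 was 0.43.

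Ccr1, a receptor of Ccl3, Ccl5, Ccl6 and Ccl9, had 1034, 978 and 1231 normalized counts in the controls and 797, 980.5 and 819 with irinotecan (limma log2 fold change -0.32, SE 0.152, adjusted p = 0.743). For Ccr1 it was -0.26 without irinotecan replicate 1. Ccr10 had a log2 fold change of 0.26 (SE 0.433), or 0.23 without that library. Of 5 atypical receptor genes, which bind chemokines without the usual signalling, 2 were tested and 0 were called. Ccrl2 had 46.1 ± 3.7 normalized counts in the controls and 27.1 ± 13.9 with irinotecan (SD, n = 3 each), and the scavenger receptor gene Ackr3 had 1209 ± 121 and 1244 ± 297. Their log2 fold changes were -0.90 (SE 0.466) and 0.02 (SE 0.184), and without irinotecan replicate 1 they were -0.39 and -0.17.

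**Figure D5:**
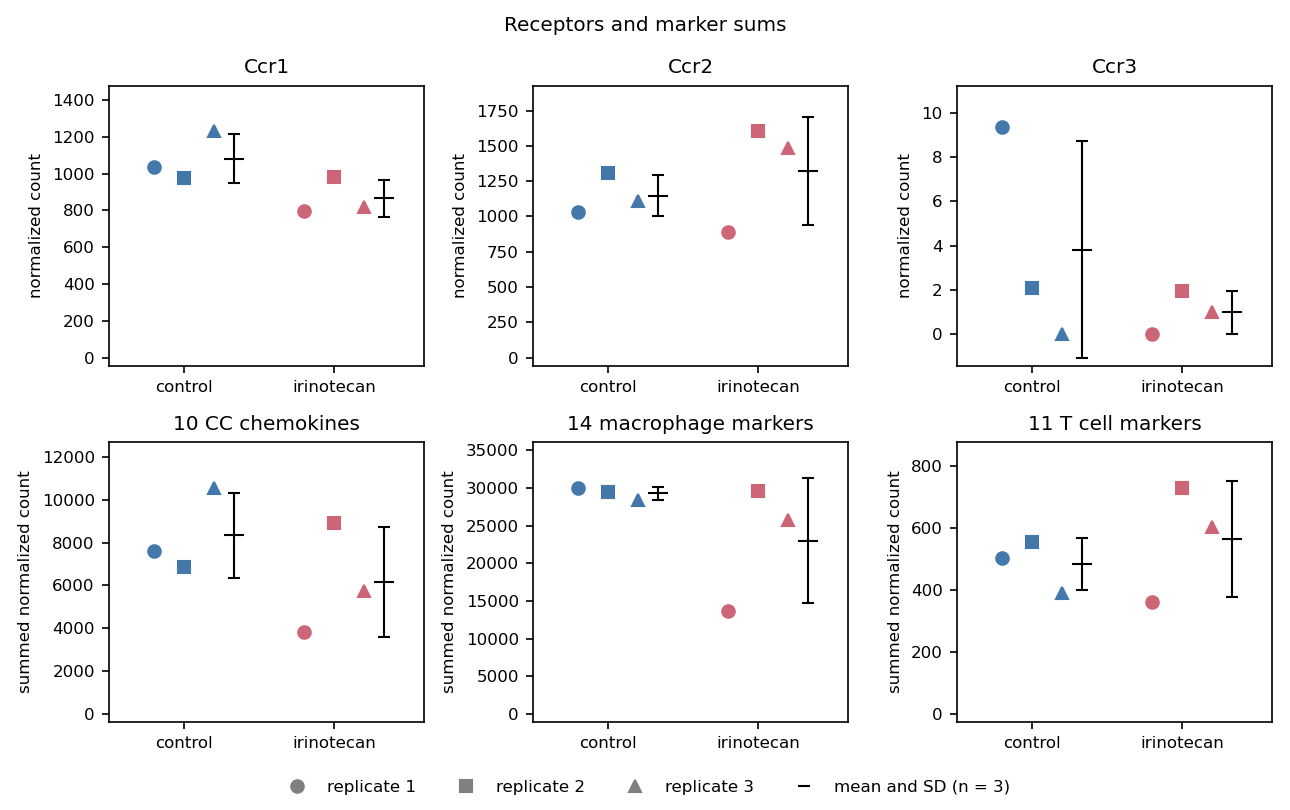
Normalized counts of the receptor genes Ccr1, Ccr2 and Ccr3 (top) and summed normalized counts of the 10 CC chemokines, 14 macrophage markers and 11 T cell markers (bottom) in control (blue) and irinotecan (red) tumours, with the mean and SD beside each group (n = 3). In irinotecan replicate 1 the macrophage sum is 13728, where the other 5 libraries hold 25776 to 30078.

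Of 13 other CC chemokine genes in the list, 7 were in the table, 4 were tested and 0 were called, with a median log2 fold change of -0.05, or 0.00037 without irinotecan replicate 1. Ccl24, a second eotaxin, had 29.0, 23.0 and 26.1 normalized counts in the controls and 5.13, 16.4 and 12.2 with irinotecan (limma log2 fold change -1.27, SE 0.5, adjusted p = 0.743), and its groups did not overlap. All irinotecan libraries lay below the controls for 1 of the 4 tested, against 7.89% of all genes. The same held for Ccrl2. Ccl22, which attracts cells with CCR4, had 31.0 ± 17.7 and 28.9 ± 18.3 (SD, n = 3 each). Ccl25 and Ccl28, mucosal chemokines, had values of 0.15 (SE 0.208) and -0.0045 (SE 0.394) on the log2 scale of the fold change. With irinotecan replicate 1 left out, Ccl24 was at -0.83, Ccl22 at 0.03, Ccl25 at -0.027 and Ccl28 at 0.028.

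Among cytokines known to induce CC chemokines, 7 of 11 were tested and 0 called, with 6 negative and a median log2 fold change of -0.61, or -0.51 without irinotecan replicate 1. Il1b, a macrophage cytokine, had 332, 493 and 704 normalized counts in the controls and 120.1, 277 and 230.1 with irinotecan (limma log2 fold change -1.30, SE 0.362, adjusted p = 0.743). The alarmin Il33 had 204, 343 and 247 against 134.5, 179 and 139.9 (-0.78, SE 0.239, adjusted p = 0.743). Il1a had a log2 fold change of -0.92 (SE 0.466) and Il6 of -0.61 (SE 0.541). The 4 genes, with irinotecan replicate 1 left out, had -0.94, -0.70, -0.66 and -0.51. In Il1b, Il33 and Il1a, 3 of the 7 tested against 7.89% of all genes, all irinotecan libraries were below the controls, also replicate 2, where Ccl2, Ccl7 and Ccl12 were within the controls.

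Of 15 NF-kB subunits and feedback regulators, which act on many chemokine promoters, 0 were called, and their median log2 fold change was -0.13, or -0.09 without irinotecan replicate 1. The inhibitor gene Nfkbia had 1171 ± 131 normalized counts in the controls and 880.0 ± 143 with irinotecan (limma log2 fold change -0.42, SE 0.168, adjusted p = 0.743). Nfkbiz had -0.29 (SE 0.146), Nfkbib -0.59 (SE 0.304) and the subunit gene Rela -0.41 (SE 0.234). These 4, with irinotecan replicate 1 left out, were at -0.28, -0.38, -0.21 and -0.12. All irinotecan libraries lay below the controls for 3 of the 15 (Nfkbia, Nfkbiz and Rela), against 7.89% of all genes. They lay above for 0, against 6.68%. Of 14 genes for glycosaminoglycan carriers and proteases that cleave chemokines, 13 were tested, 0 were called, and the median was -0.07, or -0.12 without irinotecan replicate 1. The proteases Mmp9 and Mmp12 had -0.98 (SE 0.255) and -0.91 (SE 0.34), the heparan sulfate enzyme Ext1 0.28 (SE 0.218) and the proteoglycan Sdc1 -0.22 (SE 0.195). Without that library these 4 were at -1.11, -1.05, 0.044 and -0.32. Of the 13 tested, 1 (Mmp9) had all irinotecan libraries below the controls, against 7.89% of all genes.

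Markers of cell types differed between the same libraries. The 14 monocyte and macrophage markers, all tested, summed to 28367 to 30078 normalized counts in the controls and to 13728, 29566 and 25776 in irinotecan replicates 1, 2 and 3, with none at 0 in any library. Adgre1, the gene of F4/80, had 564 to 730 in the controls and 450 to 555 with irinotecan. The 11 T cell markers summed to 392 to 555 in the controls and to 361, 732 and 605 with irinotecan, and Cd8b1 and Cd5 were at 0 in irinotecan replicate 1, while Cd3e had 42.1 there against 36.8 to 50.2 in controls. The 5 measured NK cell markers summed to 141 to 237 in the controls and 172.5 to 293 with irinotecan, with Ncr1 at 24.0 to 38.3 and 25.3 to 53.9. The 6 measured neutrophil markers summed to 310 to 542 and 192 to 227. Mast cell markers, 7 of 7 measured, summed to 436 to 771 and 359 to 468, with Cpa3 at 81.6 to 140.2 and 47.2 to 85.7. Skeletal muscle markers, 6 of 6 measured, summed to 338, 23.0 and 258 in control replicates 1, 2 and 3. In irinotecan replicates 1, 2 and 3 the muscle sums were 137, 210 and 819. The part of these cells in the chemokine values was not tested.

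Ccl5 and the sum of the T cell markers were above all controls in irinotecan replicates 2 and 3 and lowest of the 6 libraries in irinotecan replicate 1. Of the single markers, Trbc1 was highest there (82.1), and Cd3e, Cd3g, Trac and Trbc2 were not lowest. Between irinotecan replicates 2 and 3 the order was opposite, with Ccl5 higher in replicate 3 and the sum higher in replicate 2. The macrophage sum in irinotecan replicate 3 was 25776, below all controls, as were Ccl2, Ccl6, Ccl7, Ccl9 and Ccl12 there, while Ccl8 was above all controls. Fibroblast markers summed to 27113 to 37038 in the controls and 32901 to 35856 with irinotecan. In irinotecan replicate 1 Col1a2 made up 21191 of the sum of 32901, while Col1a1, Lum, Fap and Thy1, 4 of the 8 genes, were lowest of the 6 libraries, and the median difference of the list from the control mean was -0.41. The 6 endothelial markers summed to 2199 to 2529 in the controls and to 1388 to 1914 with irinotecan, without overlap. Of the single genes, 4 of 6 had all irinotecan libraries below the controls, against 7.89% of all genes. Kdr and Tek overlapped, and Tek had a positive log2 fold change (0.19, SE 0.294). The neutrophil sums did not overlap either, nor did 2 of the 5 neutrophil genes tested.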

How the data were processed

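The deposited table was made by the authors. The submitters' processing notes name DESeq2 1.20.0, featureCounts 1.5.0-p3, HISAT2 2.0.5, fastp and CASAVA, and the build GRCm38 (mm10), without roles. The annotation release, the exons and the strandedness used in counting were not stated in them. The deposited library columns hold a normalized signal. In each library 100% of the entries were integer multiples of its lowest entry above 0 (tolerance 1e-06), and division by that entry gave the reads. Per the file headers, the table also holds the authors' log2 fold changes, p-values and adjusted p-values, and gene lengths.

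The test was limma 3.58.1 in R 4.3.3 (trend option, group as the only term) on log2(normalized count + 1), for genes whose normalized count averaged 10 or more. On that scale the pseudocount draws low values together, and where 1 library is near 0 the value can be larger in size than the log2 ratio of the means (Ccl3: -1.95 against -1.05) or differ in sign (Ccl5). edgeR 4.0.16, DESeq2 1.42.0 and limma-voom on recovered reads were alternatives, and the tests were tried on simulated data first. Named are all 10 members, the receptors Ccr1, Ccr2 and Ccr3 (1 further receptor gene is not reported here), up to 4 genes per pathway list with the smallest p, the nearest profiles, the markers Adgre1, Cd3e, Ncr1 and Cpa3, and markers at 0 in a library. Other markers named (keratins, Epcam, Vil1, Cdx2, Lgals4, Cdh1, single T cell, fibroblast and endothelial genes) were picked with their values in view. GC content was the median over GENCODE M21 transcripts. Members and lists were chosen with earlier results of these data known. Without molecular identifiers, reads are not separate molecules, and intervals and floors cover counting error only. The series text speaks of duplicates, whereas 3 samples per group are labelled and were used.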

Additional observations from a re-analysis of the deposited data

How the results depend on the processing

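No CC chemokine was called under any alternative run: quantile or TMM scaling, pseudocounts of 0.5 and 10, no filter, a minimum mean of 50 (7 members tested), coding genes only, a threshold of 0.1, each library left out, library weights, a length trend removed, edgeR, DESeq2 and limma-voom, and 3 alternatives chosen after seeing the data (GC and length trend removed, and edgeR or DESeq2 without irinotecan replicate 1). Over all genes, limma called 0 higher and 0 lower. The higher count was 0 to 2 when 1 library was left out, 30 with library weights (22 lower), 30 with DESeq2 (23 lower), 2 with edgeR without irinotecan replicate 1 and 78 with DESeq2 without it (83 lower). The median log2 fold change of the members was -1.06 to -0.12 when 1 library was left out, and -0.07 with library weights. Signs turned for 5 members. When 1 library was left out, Ccl5 ran from -2.46 to 0.94, Ccl7 from -0.46 to 0.088, Ccl8 from -0.87 to 0.33, Ccl9 from -0.48 to 0.024 and Ccl11 from -1.06 to 0.14. Ccl5 was at 0.94 without irinotecan replicate 1, 0.62 with library weights, 0.38 with edgeR, 0.37 with DESeq2, and 0.96 with edgeR or DESeq2 without that library. For the same settings without that library (limma, edgeR, DESeq2), Ccl8 was at 0.33, 0.30 and 0.30, and Ccl11 at 0.14, 0.16 and 0.16. With library weights Ccl8 was at 0.17, Ccl11 at 0.0069 and Ccl9 at 0.012. Without control replicate 3, Ccl7 was at 0.088 and Ccl9 at 0.024, and without irinotecan replicate 3 Ccl7 was at 0.022. The cause was not tested. Same-numbered libraries did not deviate together (correlations of -0.11, -0.0087 and -0.21), and with the replicate number as a block 0 genes and 0 members were called, with a member median of -0.71 and 3 members lower at an unadjusted p under 0.05 (372 of all genes). Depth limits Ccl3, Ccl5 and Ccl11, with 0 to 5 reads in irinotecan replicate 1.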
